A study of Saccharomyces cerevisiae with 8 samples.

Results

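The nucleosomes of 8 budding yeast genes, each lengthened in 1 strain by an inserted sequence of 81 bp, are described here in untreated cells. The 8 genes are those that the strain labels name, out of 6002 nuclear protein-coding genes, and the 4 untreated libraries were used out of 8 in the series. The series asked how a change of gene length, and a block of transcription, bear on the periodic arrangement of nucleosomes. The assay was MNase-seq, which sequences the DNA left over after micrococcal nuclease has cut away the linkers that nucleosomes do not shield. All 4 strains derive from PPY1, a Saccharomyces cerevisiae strain of genotype MATa his3Δ0 leu2Δ0 met15Δ0 ura3Δ0 bar1::leu2, and were grown in YPD, a rich medium, and synchronised in G1. By the labels strain 1 carries the insert in CKB2 and DGK1, strain 2 in PPT1 and SLM3, strain 3 in TRP4 and PAN5, and strain 4 in UBX5 and BSP1. No strain without an insert was profiled, so for each gene the strains that carry the insert elsewhere served as controls. Each strain gave 1 untreated library, so a comparison for 1 gene sets 1 library against 3, and strain and library cannot be told apart.

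Nucleosomes in yeast genes form arrays that begin at a strongly positioned +1 nucleosome next to the nucleosome-depleted promoter and run into the coding sequence at a nearly regular repeat. A further well-placed nucleosome often lies at the end of the gene, where the last nucleosome borders another depleted region. In models of such arrays the order inside a gene depends on whether the distance between both ends holds a whole number of repeats, in which case the gene is called phased, or falls between whole numbers, in which case it is called antiphased. An insert of this length can move a gene from one class to the other.

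The inserted sequence is shown because the results turn on where calls cover it. It is copied from the series' design text, 5′ to 3′ as written there, and its orientation relative to each gene is not given in the sources used here.
insert: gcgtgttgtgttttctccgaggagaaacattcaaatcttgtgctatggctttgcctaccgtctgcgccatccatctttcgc
The 81 bp equal 27 codons and hold 40 G or C bases (49.4%), and the longest run of A and T alone is 4 bases. As printed, the 3 reading frames hold 0 stop codons each. The reverse complement holds 3 stop codons in frame 1 and 0 in the others.

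The deposited values were nucleosome calls made by the authors with nucleR. Each call has a start and an end, a class and a score from 0 to 1, which is higher where fragments are well aligned and coverage is high, and its midpoint stood for the dyad, the centre of the nucleosome. The 4 libraries held 72650 to 73483 calls, of which 53.0% to 56.8% were in the authors' class W (well positioned), and the mean score was 0.652 to 0.664. The sequencing depth behind a call is unknown from these files, and no counting interval could be given. The protocol in the labels names a target near 10 M pairs with reads of 75 bp, the same for each sample. As a check of the genotype, URA3 and MET17 (MET15 in the labels) held 0 calls in all 4 libraries, while HIS3 held 2 to 3, LEU2 8 to 10 and BAR1 11 to 12. The calls in HIS3 go against his3Δ0 as a deletion of the whole gene. The genotype also names leu2 at BAR1 (bar1::leu2), so the calls in LEU2 do not show whether LEU2 is deleted at its own place. The calls in BAR1 do not show whether it is interrupted, and the cause was not tested.

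At each site the call coordinates of 1 library stepped by the length of the insert. Past each of the 8 sites the coordinates of 1 library moved ahead of the others by 79 to 83 bp, the length of the insert, and the largest such step in the remaining pairs of library and site was 6.5 bp. The step lay in 8 of 32 pairs and in 0 of the 8 pairs that the labels name. It lay in the library labelled strain 2 at CKB2 and DGK1, in that labelled strain 3 at PPT1 and SLM3, in that labelled strain 4 at TRP4 and PAN5, and in that labelled strain 1 at UBX5 and BSP1. Each comparison is therefore given for the step library, meaning the one with the coordinate step, and then for the library of the labelled strain. Positions past a site are given with the insert length subtracted unless stated, and a call centred in the insert was then set at the site itself.

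Calls covered inserted bases in all 8 step libraries. At CKB2, DGK1, PPT1, PAN5 and UBX5 the calls of the step library covered 81 of the 81 inserted bases, and 1 call was centred inside the insert. The call centred in the insert scored 0.894 in DGK1, 0.875 in PAN5, 0.784 in UBX5, 0.414 in CKB2 and 0.278 in PPT1. At TRP4 80 of the 81 bases were covered with 0 calls centred inside, and at SLM3 and BSP1 28 bases were covered, again with 0 calls centred inside. In DGK1, PAN5 and UBX5 the centred call was the 1 call that touched the insert. In CKB2 and PPT1 3 calls touched it, scoring 0.403 to 0.543 and 0.278 to 0.709. In TRP4 calls reached into it from both sides, and in SLM3 and BSP1 most of it lay between calls.

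**Figure D1:**
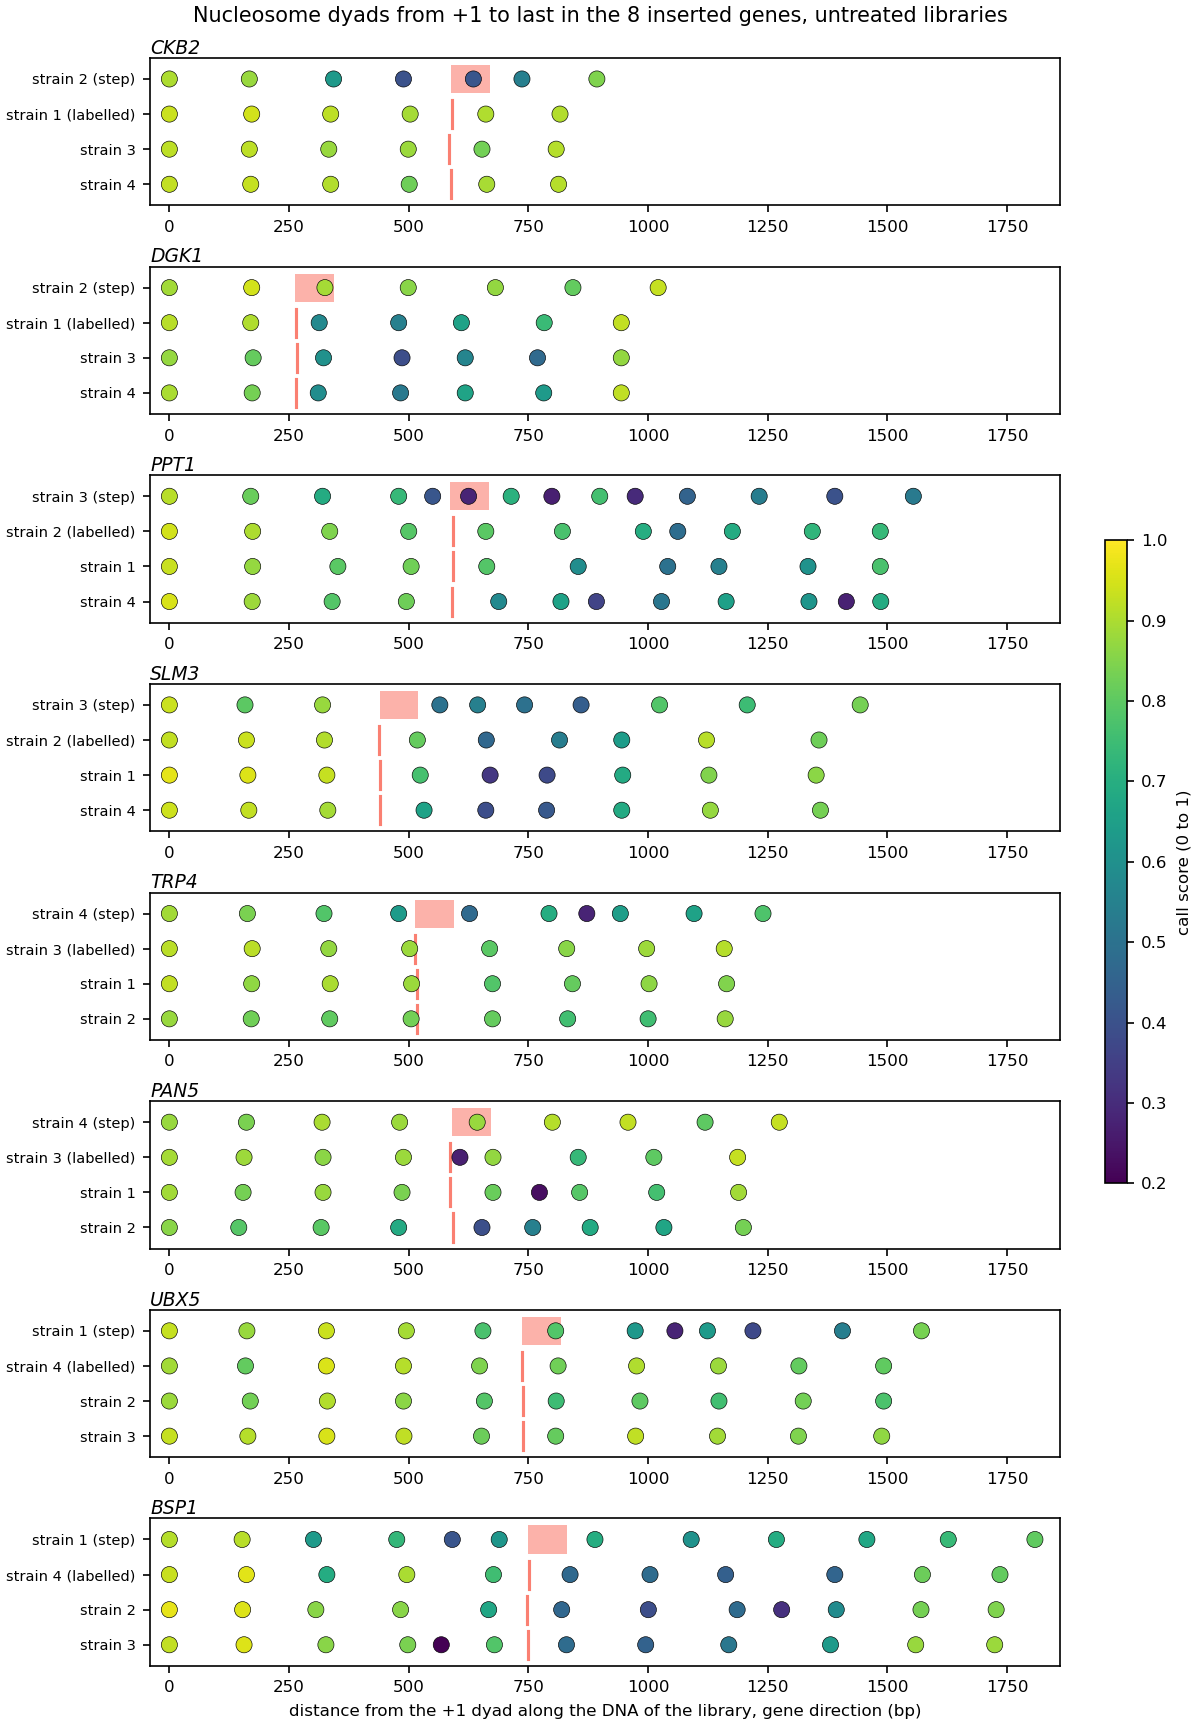
Dyads from +1 to last in each inserted gene (horizontal axis, bp from the +1 dyad along the DNA of that library) in the 4 untreated libraries (rows), coloured by call score on a scale from 0.2 to 1. The shaded block marks the 81 bp insert in the step library and the short line its site in the other 3 libraries. In UBX5 the step library shows the same even row as the others up to the call after the insert and 3 close intervals of 68 to 95 bp past it, while in PAN5 it shows the evenest row of the 4.

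The step library did not differ in the same direction in all 8 genes. The mean score of the calls from +1 to last was lower in the step library in CKB2, TRP4, PPT1, UBX5 and SLM3, higher in DGK1 and PAN5, and nearly the same in BSP1. In each of the 8 genes it lay outside the range of the other 3 libraries. For comparison, the score over the coding sequence lay outside the range of the other 3 libraries in 38.8% of 5119 genes in the library labelled strain 1, 63.4% in that labelled strain 2, 57.0% in that labelled strain 3 and 40.7% in that labelled strain 4, and on that measure too 8 of the 8 inserted genes lay outside. A value outside the range of 3 others is therefore common, and the size of the difference is given for each gene.

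CKB2 encodes a regulatory subunit of casein kinase 2. It lies on chromosome XV, 405768 to 406544, plus strand (sacCer3, as are all positions here), with its site at 406248 in codon 161 of 259. Its mean score was 0.918, 0.889 and 0.90 in the libraries labelled strain 1, 3 and 4 and 0.659 in that labelled strain 2, the step library, a difference of -0.243. The 3 libraries without the step each had 6 calls, all in class W and all scoring at least 0.825. The step library had 7, which scored 0.903 at +1, then 0.875, 0.629, 0.403, 0.414 (the call in the insert) and 0.543, and 0.847 at the last. The low scores thus lay on both sides of the site and began upstream of it, while +1 and last were only slightly below the other libraries, which scored 0.919 to 0.935 and 0.908 to 0.912 there. Intervals between neighbouring dyads ran from 101.5 to 176 bp in the step library and from 150 to 172 bp in the others. Of the 6 consensus nucleosomes of the gene, 6 scored below the range of the other libraries.

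TRP4 encodes anthranilate phosphoribosyltransferase of tryptophan synthesis. The gene spans chromosome IV, 1184747 to 1185889, plus strand, with its site at 1185196 in codon 150 of 381, almost at the centre of a nucleosome whose dyad lay 11 to 13 bp upstream in the uninserted libraries. The mean score was 0.860, 0.817 and 0.879 in the libraries labelled strain 1, 2 and 3 and 0.668 in that labelled strain 4, the step library. The uninserted array had the smallest SD of intervals of the 8 genes, with 8 calls, 100% in class W and intervals of 157 to 173 bp. In the step library 10 calls stood in its place, with intervals of 163, 160, 156, 148, 166, 79, 70, 154 and 144 bp along its DNA. The nucleosome at the site scored 0.636 against 0.862 ± 0.0290 (SD, n = 3) and lay 23.3 bp farther upstream (difference -23.3 bp), and the next 3 lay 41.0, 28.3 and 17.3 bp farther downstream with the insert subtracted. These matched dyads differed by less with each nucleosome toward the end of the gene, where the last nucleosome differed by -0.33 bp. The match left out the call 113 bp past the start of the insert, which scored 0.473. Along the DNA the dyads across the insert were 148 bp apart, against 167 to 170 bp in the others. From +1 the next 2 dyads lay at 627 and 793 bp, against 669 to 675 and 830 to 842 bp. The direction past the site thus depends on the subtraction.

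UBX5 encodes a UBX-domain protein, a class of partners of the Cdc48 ATPase. The coding sequence spans chromosome IV, 1127872 to 1129374, plus strand, with its site at 1128586 in codon 239 of 501. Calls from +1 to last averaged 0.818, 0.887 and 0.863 in the libraries labelled strain 2, 3 and 4 and 0.707 in that labelled strain 1, the step library. Measured from +1 along the DNA of each library, the step library had dyads at 655, 807 and 973 bp, where the others had them at 648 to 658, 807 to 812 and 974 to 983 bp. The array therefore ran through the insert at its former distance from +1, with the call in the insert at the place of the former next nucleosome. The irregular stretch came later, with intervals of 83, 68, 95 and 187 bp. The consensus nucleosomes 240, 407 and 582 bp past the site scored 0.281, 0.377 and 0.540 in the step library against means of 0.877, 0.842 and 0.828 in the others, while the last scored 0.836 against 0.816. With the insert subtracted, the match left out the step library's calls at 973 and 1124 bp from +1, which scored 0.626 and 0.632. It took the weaker calls beside them, so the size of these 2 differences depends on the subtraction.

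PPT1 encodes a serine/threonine phosphatase that acts on the chaperone Hsp90. Its position is chromosome VII, 736662 to 738203, minus strand, with its site at 737615 in codon 197 of 514. The call scores averaged 0.722, 0.761 and 0.649 in the libraries labelled strain 1, 2 and 4 and 0.557 in that labelled strain 3, the step library. The libraries without the step spread more here than in CKB2 or UBX5 (SD 0.0569), and their own arrays held 10, 11 and 12 calls. The step library held 14 calls, 6 of them scoring under 0.5 against 1, 1 and 2. Of its dyad intervals, 7 were shorter than the standard nucleosome length, against 1, 3 and 6. Its class W share was 21.4% against 60%, 72.7% and 41.7%. The scores of 8 of the 10 consensus nucleosomes lay below the range of the others, including the last (0.526 against 0.731 ± 0.0405, SD, n = 3).

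SLM3 encodes the mitochondrial tRNA 2-thiouridylase. It lies on chromosome IV, 392659 to 393912, minus strand, with its site at 393462 in codon 151 of 418. Its mean score was 0.748, 0.773 and 0.736 in the libraries labelled strain 1, 2 and 4 and 0.695 in that labelled strain 3, the step library. The insert fell in an interval that was already wide, 194 to 201 bp in the uninserted libraries, and this interval measured 245 bp with the insert. The next 3 intervals of the step library were 79, 98 and 118 bp. The score difference was the smallest of the 5 lower genes (-0.0570), with 4 of 9 consensus nucleosomes below and 2 above the range of the others.

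DGK1 encodes a diacylglycerol kinase. The gene spans chromosome XV, 899056 to 899928, minus strand, with its site at 899667 in codon 88 of 291. The mean score was 0.752, 0.655 and 0.724 in the libraries labelled strain 1, 3 and 4 and 0.884 in that labelled strain 2, the step library, a difference of 0.174. In the uninserted libraries the array sagged in the middle, where the 4 nucleosomes 50 to 510 bp past the insertion point scored 0.390 to 0.741. The step library scored 0.894, 0.858, 0.869 and 0.808 at these 4. Its intervals were 153 to 182 bp, against 131 to 175 bp in the others, with 7 calls in every library. DGK1 with the insert therefore held the same number of nucleosomes as without it, at a mean interval of 170.2 against 157.3 bp.

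PAN5 encodes 2-dehydropantoate 2-reductase of pantothenate synthesis. The coding sequence spans chromosome VIII, 224030 to 225169, minus strand, with its site at 224581 in codon 197 of 380. Calls from +1 to last averaged 0.769, 0.695 and 0.791 in the libraries labelled strain 1, 2 and 3 and 0.882 in that labelled strain 4, the step library. Each uninserted library had a weak call past the site (lowest score 0.229, 0.393 and 0.271 in the same order), whereas the lowest score in the step library was 0.802. The intervals of the step library were 161, 158, 162, 162, 157, 158, 161 and 155 bp. Their SD of 2.6 bp was the smallest of the 4 libraries, the others having 37.5, 24.9 and 37.1 bp. The number of calls was 9 in every library, at a more even interval in the step library. With calls of score 0.4 or more it was 8 in each uninserted library and 9 in the step library. Whether the longer gene held more nucleosomes thus depended on counting the weak calls.

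BSP1 encodes an adapter that links synaptojanins to the actin cytoskeleton. Its position is chromosome XVI, 883828 to 885558, plus strand, with its site at 884578 in codon 251 of 577. The call scores averaged 0.685, 0.697 and 0.702 in the libraries labelled strain 2, 3 and 4 and 0.702 in that labelled strain 1, the step library, a difference of 0.00788 that has the opposite sign when scores are centred on the library median. This balance held opposite parts. Before the site the scores of 5 of 5 nucleosomes lay below the range of the others, for example 0.729 against 0.865 ± 0.0309 (SD, n = 3) at +4. The 4 nucleosomes just past the site scored 0.695, 0.606, 0.691 and 0.676 in the step library against means of 0.471, 0.440, 0.478 and 0.558, each above the range of the others. The last 2 were again below it.

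**Figure D2:**
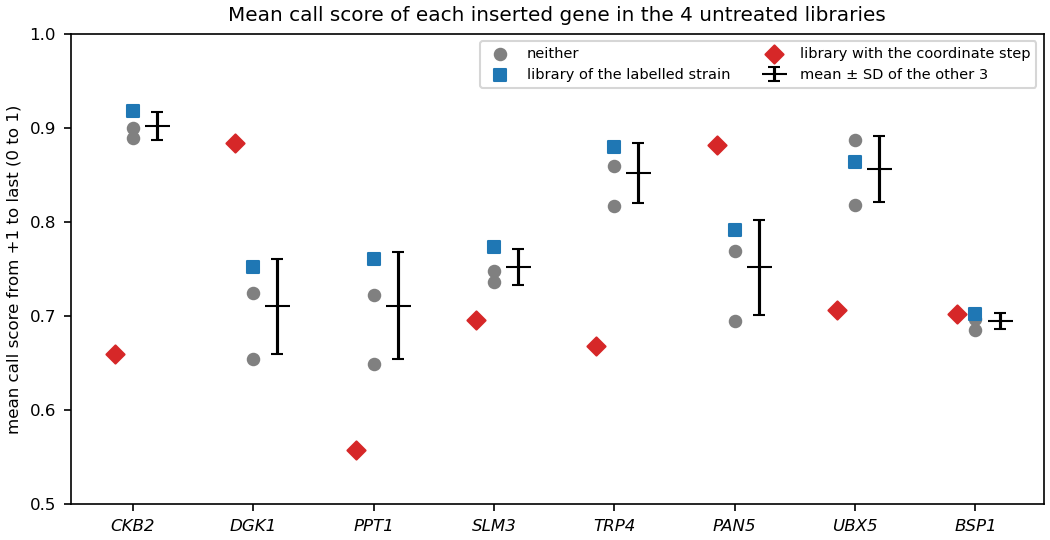
Mean call score from +1 to last (vertical axis, 0 to 1, axis from 0.5) of each inserted gene, with diamonds for the step library, squares for the library of the labelled strain, circles for the other 2 libraries and bars for the mean ± SD of the 3 libraries without the step (n = 3). The step library is below the others in CKB2, PPT1, SLM3, TRP4 and UBX5, above them in DGK1 and PAN5, and level with the highest of them in BSP1.

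The intervals between dyads were more uneven in the step library in some genes and more even in others. Their SD in the step library was 26.0 bp in CKB2, 36.6 bp in TRP4 and 40.4 bp in UBX5, where the other 3 libraries had 6.5 to 7.67, 4.42 to 5.34 and 5.72 to 8.17 bp. In SLM3 it was 56.7 bp against 31.7 to 34.9 bp. It was smaller in the step library in DGK1 (10.8 bp against 16.7 to 17.1 bp) and in PAN5, and lay within the range of the others in PPT1 (39.2 bp against 26.5 to 43.2 bp) and BSP1 (33.1 bp against 20.9 to 37.5 bp). The SD was larger in 4 genes whose mean score was lower and smaller in both genes whose mean score was clearly higher. These SDs were added after the data had been seen and were not compared across the 8 genes by permutation.

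**Figure D3:**
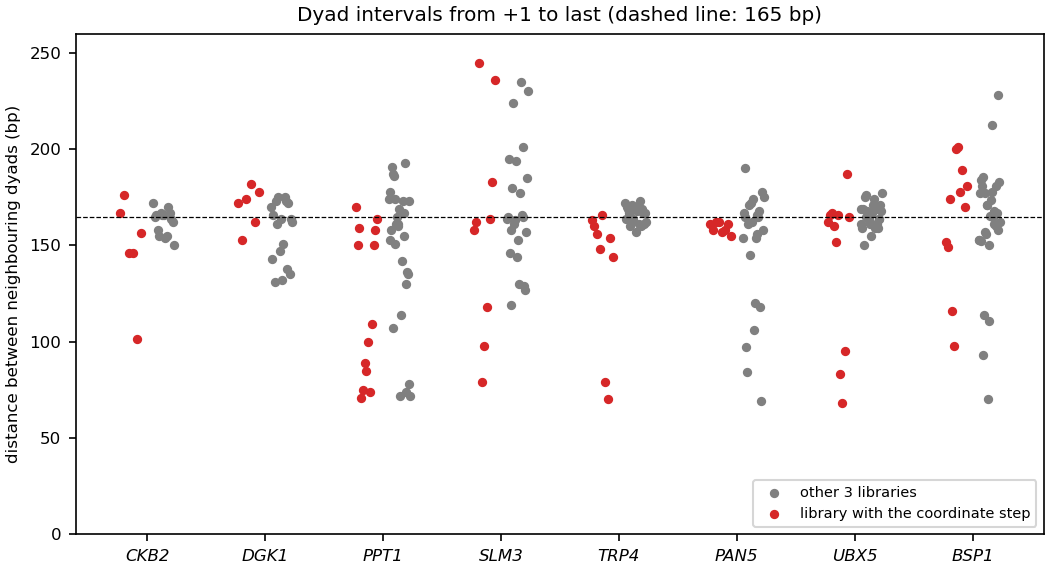
Distance between neighbouring dyads (vertical axis, bp, along the DNA of each library) from +1 to last in each inserted gene, left points for the step library and right points for the other 3 libraries together. The points of the step library spread to 101.5 bp in CKB2, 70 bp in TRP4 and 68 bp in UBX5, below the points of the other libraries, and gather between 155 and 162 bp in PAN5.

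The ends of the genes lay in place in the step library, while the nucleosomes between them differed more in position. Over the 8 genes the +1 dyad of the step library differed from the mean of the other 3 by a median of 1.0 bp (largest 4.67 bp) and the last dyad, with the insert subtracted, by a median of 0.833 bp (largest 7.67 bp, in PPT1). The 53 nucleosomes between them differed by a median of 11.3 bp and by up to 71.3 bp, or by a median of 9.83 bp and up to 62.0 bp over the 51 whose call was not centred in the insert. Over all 63908 consensus nucleosomes called in the 4 libraries the median difference of 1 library from the other 3 was 3.67 to 6.83 bp. That wider set held calls within 60 bp only, whereas the 53 took the nearest call at any distance, so they are not matched. By the rule of the wider set the median within the coding sequence was 2.5 bp in UBX5, 3.83 bp in CKB2 and 4.17 bp in SLM3. It was 10.2 bp in PAN5, 13.0 bp in DGK1, 15.3 bp in BSP1, 16.3 bp in PPT1 and 17.3 bp in TRP4. The displacement was largest at the nucleosome just past the site, with a median of 39.8 bp, which includes 2 calls centred in the insert, and was 35.8 bp over the other 6. It was 10.0, 6.67 and 3.0 bp at the nearest, the second and the third nucleosome upstream, and 9.08 and 15.7 bp at the second and the third downstream. Just past the site the dyads of the step library lay nearer the end of the gene in SLM3, TRP4 and PAN5 and nearer the start in the remaining 5 genes. In UBX5 and DGK1 this direction comes from setting a call in the insert at the site. From +1 along the DNA these calls lay at 807 bp (others 807 to 812 bp) and 325 bp (others 311 to 322 bp). In PAN5 and TRP4 the match passed over the first call past the start of the insert and took the following one. From +1 along the DNA that first call lay at 643 bp in PAN5 (matched calls of the others 653 to 676 bp). In TRP4 it lay at 627 bp (others 669 to 675 bp), so the direction depends on how positions were set. In SLM3 the step library had calls 126 and 205 bp past the start of the insert. With the insert subtracted they lay on either side of the others (80 to 91 bp).

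Of the 69 consensus nucleosomes of the 8 genes, the step library had 35 scores below, 18 above and 16 within the range of the other 3, and 45 dyads outside it. The share of all consensus nucleosomes outside that range was, for the libraries labelled strain 1 to 4, 41.2%, 61.5%, 55.3% and 42.0% for the score and 31.6%, 63.6%, 54.5% and 31.7% for the dyad. The median absolute score difference was 0.0917 in the 69 against 0.0360 to 0.0517 over all consensus nucleosomes. The 69 took the nearest call at any distance, while the wider set held calls within 60 bp in every library. These shares and medians are therefore not matched.

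**Figure D4:**
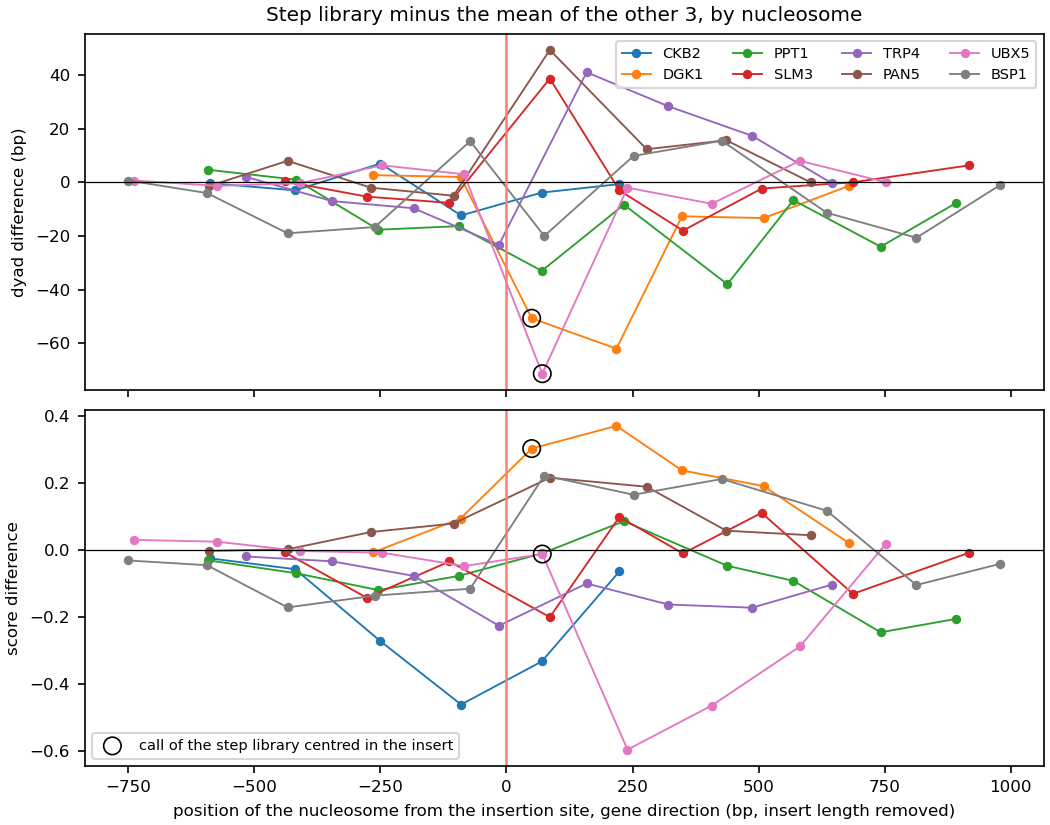
Difference of the step library from the mean of the other 3 libraries in dyad position (top, bp) and call score (bottom) for each consensus nucleosome, placed by its distance from the insertion site in gene direction (horizontal axis, bp, insert length removed), 1 line per gene. Circled points are calls centred in the insert, set at the site. Dyad differences are near 0 at both ends and reach -71.3 bp just past the site in UBX5, and score differences run from -0.597 in UBX5 to 0.372 in DGK1. At -0.597 the match took a call of score 0.281 and left out a neighbouring call of score 0.626.

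The distance from +1 to last was longer in the step library by close to the length of the insert. As deposited, it was 893 bp in CKB2 in the step library against 808 to 816 bp, 1021 bp in DGK1 against 944 bp in each other library, and 1808 bp in BSP1 against 1724 to 1735 bp. Averaged over the 8 genes the difference was 79.25 bp, which follows from how the step libraries were found and carries no test. With 81 bp subtracted it was -1.75 bp (exact two-sided permutation p = 0.167). PPT1 departed farthest from this, with 1473 bp after subtraction against 1485 to 1486 bp.

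A further 5 measures were compared across the 8 genes by permuting the 4 pairs of genes over the 4 libraries, which allows 24 assignments and an exact p no smaller than 0.0417. The assignment to the step libraries was the most extreme of the 24 for each of them. The mean score differed by -0.0594 (exact p = 0.0417, lower in 5 of 8 genes), the share of class W calls by -13.6 percentage points (exact p = 0.0417, lower in 5 of 8) and the number of calls by 1.17 (exact p = 0.0417, higher in 6 of 8, equal in the remaining genes, over a stretch that is longer by the insert). The median interval differed by -9.14 bp (exact p = 0.0417, lower in 6 of 8), or by -7.45 bp with the insert left in (exact p = 0.0833). The mean interval, with the insert subtracted, differed by -19.3 bp (exact p = 0.0417, lower in 7 of 8). Subtracting the insert in the step library alone shortens its mean interval by construction, and this p does not separate that part. Along the DNA of each library, without a test, the mean interval was longer in the step library in DGK1 (12.8 bp), PAN5 (10.3 bp) and BSP1 (1.95 bp). In the remaining genes it was shorter, with differences from -30.0 bp in PPT1 to -9.17 bp in SLM3. The mean displacement of the nucleosomes past the site was 16.7 bp, against 10.3 bp on average over the 24 assignments (exact p = 0.0417). The step library alone had the insert length subtracted and calls in the insert set at the site. Part of this displacement can therefore follow from how positions were set, and its p does not separate that part. With adjustment over the 7 measures compared, each of the 5 had an adjusted p of 0.0583 and did not pass 0.05. The measures use the same calls and are not separate evidence, and a mean over genes that differ in direction describes none of them.

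These values depended on the calls near the site and on single libraries. Without the library labelled strain 3 the median interval differed by -3.92 bp and the class W share by -8.57 percentage points. Both stayed at the smallest exact p that 3 libraries allow (exact p = 0.167). Without the library labelled strain 1 the mean score differed by -0.0482 and the class W share by -12.1 percentage points (exact p = 0.333 for each). With calls within 150 bp of the site left out, the mean score differed by -0.0359 (exact p = 0.208), the class W share by -2.0 percentage points (exact p = 0.792) and the median interval by 0.833 bp (exact p = 0.875). The displacement past the site was then 11.6 bp against 8.08 bp on average over the assignments (exact p = 0.0417), while with calls scoring under 0.4 left out it was 23.0 bp against 18.6 bp on average (exact p = 0.292). Both values still subtract the insert length in the step library alone.

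The arrays of the labelled library lay close to those of the libraries with neither step nor label. Its dyads differed from the mean of those 2 libraries by a median of 3.0 bp over 69 nucleosomes (largest 28.5 bp). Across the sites its dyads lay 158 bp apart in CKB2 (154 and 162 bp in the other 2), 194 bp in SLM3 (195 and 201 bp), 167 bp in TRP4 (169 and 170 bp), 164 bp in UBX5 (150 and 155 bp) and 160 bp in BSP1 (152.5 and 150.5 bp). In PPT1 the distance was 161 bp (158 and 193 bp), and in PAN5, where a weak call of score 0.271 stood just past the site, it was 118 bp (190 and 174 bp). In DGK1 it was 143 bp, between the distances of the other 2. None of these distances exceeded those of the other 2 by anything near the length of the insert. In the step libraries the same distance was 146 bp in CKB2, 89 bp in PPT1 and 148 bp in TRP4, below the other libraries. It was 152 bp in UBX5 and 157 bp in PAN5, within their range. Above that range were 174 bp in DGK1, 245 bp in SLM3 and 200 bp in BSP1. The distance across a site therefore does not show whether a library holds the insert.

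Against the other 3 libraries together, the mean score of the labelled library differed by 0.0549 (exact p = 0.0833, higher in 7 of 8 genes), the class W share by 12.1 percentage points (exact p = 0.125) and the distance from +1 to last by 1.42 bp (exact p = 0.333). The median interval differed by 4.16 bp (exact p = 0.458), the number of calls by -0.5 (exact p = 0.375), and the displacement past the site was 8.69 bp (exact p = 0.542). The smallest adjusted p over the 7 measures was 0.4375. These contrasts hold the step library among the 3 controls. Against the 2 libraries with neither, a comparison added after the data had been seen, the labelled library scored 0.0395 higher on average and was the highest of the 3 in 7 of 8 genes, UBX5 being the exception, with differences from the mean of the 2 from 0.0106 in BSP1 to 0.0755 in PPT1.

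Each inserted gene was also placed among all genes. For each library in turn limma compared the mean score over the coding sequence with the other 3 in 5119 genes with at least 3 calls in every library, with the lone library assumed to vary like the others. In simulated data such a fit recovered 2 of 100 planted gene changes of 0.15 and 51 of 100 of 0.3. At single nucleosomes it recovered 0 of 100 score changes of 0.3 and 0 of 100 dyad shifts of 20 bp. An absence of calls is therefore no evidence of no change. No gene was called in any of the 4 fits after Benjamini-Hochberg adjustment (0 called, 0.0%), with 66, 814, 391 and 84 genes at an unadjusted p below 0.05 for the libraries labelled strain 1 to 4. By size of the difference, without a test, CKB2 in the library labelled strain 2 stood at rank 2 of 5119 (-0.278, SE 0.0263, limma adjusted p = 0.134) and DGK1 at rank 7 (0.240, SE 0.0474, limma adjusted p = 0.174). TRP4 in the library labelled strain 4 stood at rank 2 (-0.201, limma adjusted p = 0.999), PAN5 at rank 13 (0.149) and UBX5 in the library labelled strain 1 at rank 7 (-0.165). PPT1 (-0.130) stood at rank 111 in the library labelled strain 3, SLM3 (-0.0613) at rank 1003, and BSP1 (0.0203) at rank 2689 in that labelled strain 1. In the labelled libraries the same genes stood at ranks 50, 3612, 223, 3864, 404, 274, 1573 and 1921, in that order of naming. With a prior variance that follows the mean, CKB2 was 1 of 7 genes called in the library labelled strain 2 (0.137% of 5119, limma adjusted p = 0.0255). With calls of score 0.4 or more it was the 1 gene called there (0.0198% of 5057, limma adjusted p = 0.0457).

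For single nucleosomes limma called 0 of 63908 scores and 0 of 63908 dyads in each of the 4 libraries (0.0%). With the trended prior it called 295 scores in the library labelled strain 2 (0.462%) and 0 in the other 3. At an unadjusted p below 0.05 stood 1528, 9341, 5076 and 1733 scores and 2213, 11167, 5052 and 2168 dyads for the libraries labelled strain 1 to 4.

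Phase was set from the distance between +1 and last in the 3 uninserted libraries, and a gene was called phased where it lay within 0.25 of the repeat of a whole multiple. With the repeat midway between 160 and 170 bp, CKB2, PPT1, SLM3, TRP4, UBX5 and PAN5 were phased without the insert and DGK1 and BSP1 antiphased, and all 8 moved to the other class when 81 bp were added. The mean score was lower in the step library in 5 of the 6 phased genes, with PAN5 the exception, and higher in 2 of the 2 antiphased genes, with the BSP1 difference of 0.00788 among them. PPT1, UBX5 and TRP4 lay within 0.333, 5.67 and 6.33 bp of a multiple and CKB2 within 12.7 bp. SLM3 at 36.0 bp, PAN5 at 36.7 bp and DGK1 at 46.0 bp lay near the border of 41.25 bp.

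The split depended on the repeat. With 160 bp, 3 genes were phased (CKB2, DGK1 and BSP1), of which 1 had a lower score in the step library and 2 a higher one, and of the 5 antiphased genes 4 had a lower score and 1 (PAN5) a higher one. With 170 bp, 6 were phased (4 lower, 2 higher) and 2 antiphased, DGK1 higher and PPT1 lower. With 170 bp UBX5 remained phased when the insert was added, so 7 of 8 genes moved to the other class. The score differences themselves do not depend on the repeat, which sets the class alone. CKB2 and no other gene was phased with each of the 3 repeats.

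**Figure D5:**
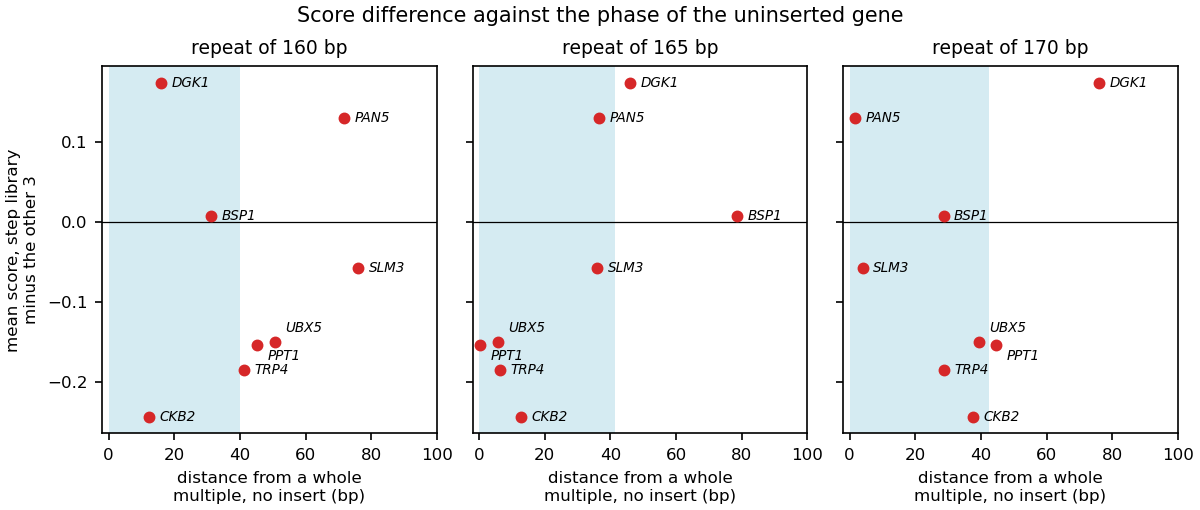
Mean score of the step library minus that of the other 3 (vertical axis) against the distance of the uninserted gene from a whole multiple of the repeat (horizontal axis, bp), for repeats of 160 bp, 170 bp and the length midway between them, 1 point per gene. The shaded range is within 0.25 of the repeat (phased). At the middle length 5 of the 6 points in the shaded range are below 0, with 160 bp 1 of 3 and with 170 bp 4 of 6.

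The genes next to the inserted ones were examined in the same libraries. Over the 8 pairs of neighbours the mean score in the step library differed by 0.0163 from the other 3 (exact p = 0.292, adjusted p = 0.292), and in the labelled library by 0.000555 (exact p = 1.0). Of the 15 neighbours with enough calls, 6 lay outside the range of the other 3 libraries in the step library, 3 above and 3 below, with a median absolute difference of 0.0253, against 0.157 in the inserted genes. Over all 5119 genes 38.8% to 63.4% lay outside that range, by library, with a median absolute difference of 0.0215 to 0.0343. The neighbours thus did not stand out from genes in general, and those outside the range are listed as description. The largest difference was in NOP58, a protein of the box C/D snoRNPs downstream of DGK1, which scored 0.698 in the library labelled strain 2 and 0.634, 0.575 and 0.622 in those labelled strain 1, 3 and 4. GPI8, a subunit of the GPI transamidase downstream of UBX5, scored 0.807 in the library labelled strain 1 and 0.729, 0.772 and 0.771 in the others.

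The other 4 neighbours outside the range of the other libraries lay just beyond it. YGR122W, downstream of PPT1, scored 0.580 against 0.594, 0.645 and 0.618. HIR2, a regulator of histone genes that diverges from CKB2, scored 0.711 against 0.722, 0.743 and 0.746. GPR1, a glucose receptor downstream of SLM3, scored 0.537 against 0.508, 0.531 and 0.534, and SSZ1, a ribosome-associated Hsp70 upstream of PAN5, scored 0.662 against 0.665, 0.664 and 0.669. The step library was thus below the others in YGR122W, HIR2 and SSZ1 and above them in GPR1. TRR1, SPC110, RPP1, PEX3, GLO4, ASN2, DBP10, RPL20B and YPR172W lay within the range of the other libraries. RPL20B differed from the mean of the others by 0.0611, but the others ranged from 0.641 to 0.842. It has a near-identical second copy in the genome, and whether reads were split between the copies was not tested. YPR170W-B, upstream of BSP1, held 2 to 3 calls and was left out of the counts.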

How the data were processed

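The deposited values are nucleosome calls of 4 untreated MNase-seq libraries, made by the authors with nucleR on sacCer3, per the submitters' processing notes. Each call has a score, per the file columns the mean of a width score and a height score. The sources used here name no aligner, version or filter, and sequencing depth is unknown. Libraries were grouped by the strain in their labels, 1 each, so a p-value reflects only how these libraries, each of another strain, vary.

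For each inserted gene 81 bp were subtracted past the coordinate step. Dyads were smoothed with a Gaussian kernel (SD 20 bp) into consensus nucleosomes at least 80 bp apart, calls within 60 bp were assigned to them, and arrays used those found in at least 3 libraries. Within the arrays of the inserted genes each library then gave its nearest call, without a limit of distance. The +1 nucleosome is the downstream side of the widest gap in a window that opens 150 bp before the coding start and closes 200 bp after it, and the last is nearest the coding end. Gene pairs were permuted over libraries (exact, two-sided, 24 assignments, Benjamini-Hochberg over 7 measures). In limma 3.58.1 (R 4.3.3) 1 library was fitted against 3, with a threshold of 0.05. Tables used Python 3.11.15, numpy 2.4.6, pandas 2.3.3 and scipy 1.17.1, and figures matplotlib 3.10.9. Scripts were tested on simulated data. All 8 inserted genes and both neighbours of each were named by rule. Members and lists were chosen with earlier results of these data known. Alternatives covered the labelled library, calls over 150 bp from the site, calls of score 0.4 or more, width or height score alone, score centring, medians, coordinates as deposited, the choice of +1, repeat length, the limma prior and leaving out each library. The SD of intervals, the ranks, the splits of displacement by place and the comparison of the labelled library with 2 others were added after the data had been seen.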

Additional observations from a re-analysis of the deposited data

Results flagged for a closer look

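In 10 of 43 sets of 4 libraries 1 library stood far from the other 3 by Dixon's criterion at its 95% level, and in 8 of these it was the step library of an inserted gene. Chance marks about 1 in 20 sets of independent values, a rate that does not apply here, since the sets share calls and the SDs of intervals were added after the data had been seen. The mean score of CKB2 was 0.659 in the library labelled strain 2. The SD of dyad intervals stood apart in the step library in CKB2 (26.0 bp), DGK1 (10.8 bp, below the others), SLM3 (56.7 bp), TRP4 (36.6 bp) and UBX5 (40.4 bp). The distance from +1 to last, with the insert subtracted, was 940 bp in DGK1 against 944 bp in each other library, where the tied values make a small difference stand apart, and 1473 bp in PPT1 against 1485 to 1486 bp.

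The other 2 were neighbours in libraries without a step beside them. ASN2, an asparagine synthetase gene upstream of PPT1, had a mean score of 0.565 in the library labelled strain 4 against 0.643 to 0.647. SPC110, a spindle pole body gene downstream of TRP4, had 0.543 in the library labelled strain 2 against 0.636 to 0.646.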

How the results depend on the processing

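With 1 library per strain no gene has a replicate check, and sequencing depth is unknown. No paired analysis was possible because each strain gave 1 untreated library and the treated libraries that share its number are not used here. For the labelled library the differences had the opposite sign or lost their size: mean score 0.0549, distance 1.42 bp, median interval 4.16 bp, calls -0.5, class W share 12.1 percentage points, displacement 8.69 bp, and score against the 2 libraries with neither 0.0395. Scores over the coding sequence were then 0.116 in CKB2, -0.0120 in DGK1, 0.117 in PPT1, 0.0547 in SLM3, 0.107 in TRP4, 0.0135 in PAN5, 0.0674 in UBX5 and -0.0305 in BSP1. With calls over 150 bp from the site the score differed by -0.0359, the interval by 0.833 bp, calls by 0.333 and class W by -2.0 points. The width score alone gave -0.0491 (exact p = 0.0833). As deposited, the distance differed by 79.25 bp and the interval by -7.45 bp, since the insert length is then not subtracted. With calls of score 0.4 or more the displacement was 23.0 bp and BSP1 -0.0180. A repeat of 160 bp left 3 genes phased. In the library labelled strain 2 limma called 7 genes and 295 nucleosome scores with a trended prior, and 1 gene with calls of score 0.4 or more. Leaving out 1 library gave scores of -0.0746 to -0.0415, intervals of -11.2 to -3.92 bp, 0.917 to 1.42 calls, class W shares of -20.3 to -8.57 points and displacements of 15.3 to 17.6 bp, with a smallest exact p of 0.167. Except where a value or construction is named, the cause was not tested. Assignment within 30 bp does not apply to scores over coding sequences.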

Other observations

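The 7 genes that limma called in the library labelled strain 2 with a trended prior were MRS1, DCV1, CKB2, TDA5, OM14, GCV3 and CPR2, named after their values were seen. CKB2 is the inserted gene among them, with a limma adjusted p of 0.0255.

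Calls wider than the standard nucleosome length also differed between libraries at inserted genes. CKB2 had 2 in the step library and 0 in each other library, while BSP1 had 0 in the step library and 2, 3 and 3 in the others.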
